A study of Homo sapiens with 12 samples.

Results

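The comparison described here sets HD-MyZ cells that received perifosine and sorafenib together against untreated HD-MyZ cells. It was made over 3 combination arrays and 3 control arrays of the 12 arrays in the series, and all 18852 genes with a named probe were tested. HD-MyZ is an established human cell line from a Hodgkin lymphoma. Combination cells had 10 µM perifosine and 5 µM sorafenib in the medium for 24 h, and control cells had neither drug, with no vehicle named in the labels (replicates A, B and C in each group). The other 6 arrays, which are used to set the combination beside its components, come from cells given 5 µM sorafenib alone or 10 µM perifosine alone for the same time. All groups are the same line, seeded in flasks a day before treatment, so they describe 1 line at 1 time and at a single dose of each drug. The labels do not say that replicates were separate cultures, and p-values therefore measure the spread between these samples, which may be technical.

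Perifosine is an alkylphospholipid that keeps the kinase AKT from reaching the membrane, and sorafenib inhibits RAF kinases and several receptor tyrosine kinases. AKT restrains the FOXO transcription factors and feeds mTORC1, the kinase complex that couples nutrients to growth. RAF activates MEK and ERK, and ERK drives immediate early genes such as EGR1 and, with them, entry into S phase. Kinase inhibitors are also known to engage the integrated stress response, in which phosphorylated eIF2 slows translation while ATF4 is made. ATF4 then induces genes of amino acid synthesis, amino acid uptake and tRNA charging. It does so through the C/EBP-ATF response element, a short promoter motif.

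Linear intensities on the 12 arrays lay between 170 and 71906 (median 322), and 3 arrays a group limit the precision of every value. No background was subtracted here, and what the submitters subtracted is not given. With a lowest value of 170, log2 changes of dim genes may be understated. A mean below 512 in a group is described as near the background. A gene is said to be called where its adjusted p is under 0.05. Among 21 measured genes of Hodgkin cells 10 lay near the background in both groups, including TNFRSF8, the gene of CD30, with means of 276 in combination cells and 286 in control cells. FUT4, which makes the CD15 sugar, averaged 1378 in combination cells and 1860 in control cells, and FSCN1 (fascin) averaged 59131 in combination cells and 55594 in control cells. Of the markers of other lineages, 11 of 12 for B and plasma cells, 13 of 14 for T and NK cells, 12 of 13 for monocytes, 9 of 11 for epithelium and 6 of 9 for endothelium lay near the background in both groups. By limma 0 genes of these 6 lists were called, and at an unadjusted p under 0.05 there were 4 Hodgkin, 1 monocyte and 1 epithelial gene. Without the 3 arrays described next, 1 Hodgkin gene rose and 2 fell, and the other 5 lists had 0 calls. Fibroblast and stromal markers, described further below, differed from these lists: 3 of 13 lay near the background in both groups, and 4 rose. Combination A, control C and sorafenib B correlated less with their group mates than those mates did with each other (mean r 0.985 against 0.993, 0.985 against 0.994, and 0.963 against 0.994). Measured against the group mates, the median log2 intensity was -0.52, -0.41 and -1.03 in these 3 arrays for 29 nuclear genes of oxidative phosphorylation, and -1.28, -1.26 and -1.62 for 10 metallothionein genes. Why these 3 arrays differ was not tested, and the counts of the lists described below are also given without them. These arrays were picked from the same values for differing from their group mates, so calls gained without them are no independent support. Between combination and control the oxidative phosphorylation and metallothionein lists each had 0 called genes by limma, and 0 at an unadjusted p under 0.05, while without these 3 arrays 1 gene of oxidative phosphorylation fell.

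Combination cells differed from control cells in 343 genes, which is 1.82% of those tested (limma, adjusted p under 0.05). Of these 211 were higher (1.12%) and 132 lower (0.7%), and at a change of 2-fold or more there were 56 rises and 26 falls (0.297% and 0.138%). At an unadjusted p under 0.05 there were 2404 of the 18852, the share beside which unadjusted counts of lists are to be read. Across called genes the median log2 change was 0.81 for rises and -0.72 for falls, the smallest called change was 0.40 in size, and the median over all genes tested was -0.001. In every called gene the 3 combination arrays lay on one side of the 3 control arrays, which was also true of 3636 genes in all (19.3%). When the 3 arrays that stood apart were left out, 1112 genes were called (5.9%, of which 3.36% higher and 2.54% lower), and 321 of the 343 were among them. The count was 160, 146 and 119 without combination A, B or C and 147, 89 and 163 without control A, B or C, and it was 1046 without sorafenib B, which enters through the shared spread alone. The genes named below as the largest changes are the 15 rises and 15 falls of greatest size, and 24 of these 30 were called with any 1 of the 6 arrays left out.

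**Figure D1:**
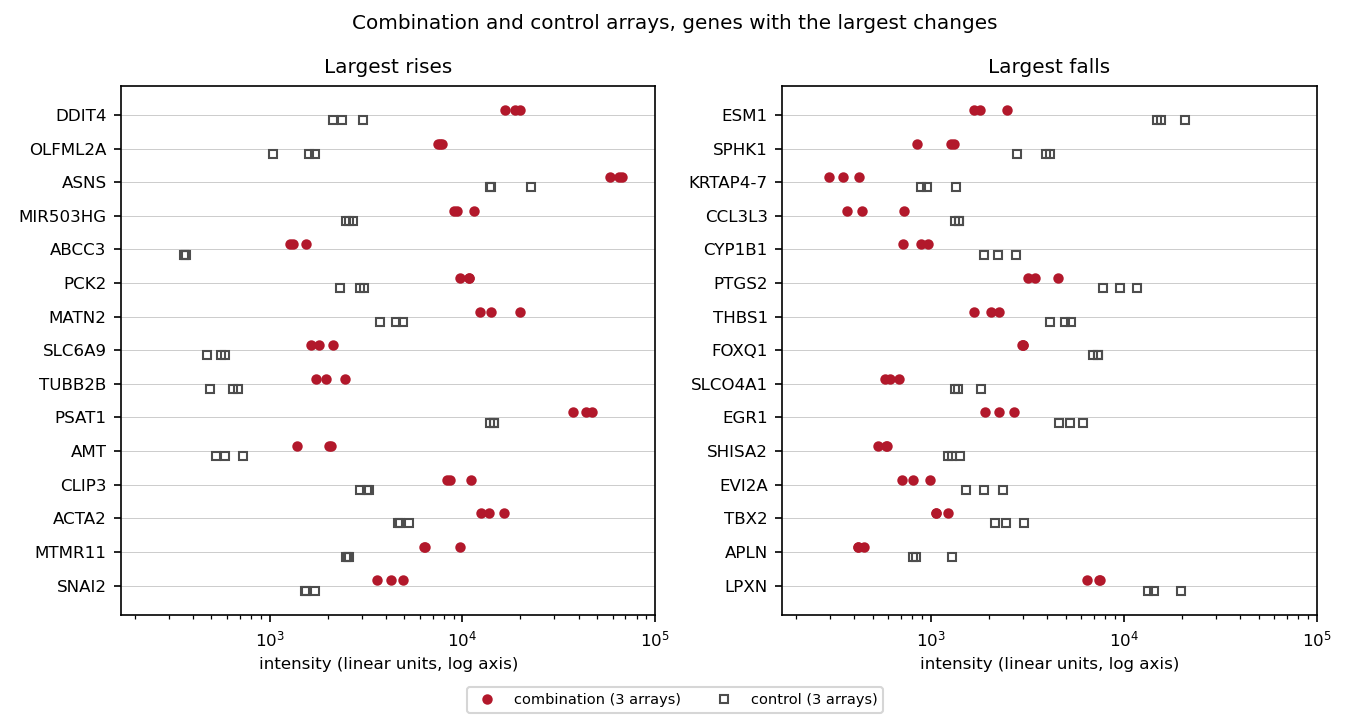
Intensity of the 15 genes with the largest rises (left) and the 15 with the largest falls (right), on a log axis, with 1 filled point per combination array and 1 open square per control array. The genes were chosen so that filled points and open squares lie apart, as with DDIT4 at 16634 to 19775 in combination cells and 2143 to 3044 in control cells.

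The largest rise was in DDIT4, whose product REDD1 holds mTORC1 down under stress and which ATF4 is known to induce. DDIT4 had intensities of 16634, 18654 and 19775 in combination cells, against 3044, 2143 and 2379 in control cells. The lowest combination array was thus well above the highest control array, and the log2 change was 2.88 (SE 0.15, adjusted p = 6.8e-06 by limma). TRIB3, a pseudokinase that binds AKT and is itself an ATF4 target, stood at 7170, 6074 and 5342 in combination cells and at 2591, 2799 and 3167 in control cells. Its log2 change was 1.11 (SE 0.13, adjusted p = 0.0015). SESN2, a sestrin that restrains mTORC1 when leucine is short, rose by 1.11 (adjusted p = 0.0345), with 850, 1166 and 986 in combination cells and 427, 481 and 469 in control cells. The control arrays of SESN2 were near the background. DDIT3 encodes the stress factor CHOP and had 1936, 3226 and 3146 in combination cells, against 1571, 1462 and 1344 in control cells. Combination A was the low array, and the log2 difference of 0.89 (SE 0.34) did not pass the test (adjusted p = 0.266). It did pass without the 3 arrays that stood apart (1.07, adjusted p = 0.000703) and without sorafenib B alone (0.89, adjusted p = 0.0116). ATF4 itself measured 68945, 66733 and 70326 in combination cells and 38552, 40424 and 57410 in control cells, a log2 difference of 0.62 that was not called (adjusted p = 0.0651). Its combination values lie near the top of the scale.

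Over the whole list of 16 transcription factors and stress regulators that ATF4 induces, 3 genes rose and 0 fell, and 15 of 16 had a higher mean in combination cells. The list's median log2 change was 0.67, beside -0.001 for all genes. The 1 member with a lower mean was ATF5, a bZIP factor, at -0.58 and not called (adjusted p = 0.0764). Leaving out the 3 arrays that stood apart gave 10 rises and 1 fall, and with 1 compared array left out 2 to 4 were called. Since the study was made on whole cultures, more RNA per cell and more cells with that RNA cannot be told apart here or below.

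Enzymes of amino acid synthesis gave the next group of rises, with 5 of 13 measured genes higher, 0 lower and a median log2 change of 0.49. ASNS, which makes asparagine, had 66938, 58386 and 65052 in combination cells and 13968, 14051 and 22682 in control cells. Control C was its high control array, yet lay far below every combination array, and the log2 change was 1.95 (SE 0.19, adjusted p = 0.000591). PCK2, the mitochondrial form of phosphoenolpyruvate carboxykinase, rose by 1.92 with 9663, 10793 and 10803 in combination cells and 2932, 3081 and 2318 in control cells. Of the serine pathway, PSAT1 rose by 1.57 (46822, 37346 and 43630 in combination cells, 14536, 13863 and 14530 in control cells), and by 0.86 with its 2 probes averaged (adjusted p = 0.001). PHGDH, the first enzyme of that pathway, rose by 1.04, with 68027, 64091 and 65188 in combination cells and 31384, 32088 and 32626 in control cells. CBS, which joins serine and homocysteine, rose by 0.99 (adjusted p = 0.00395). The list also had 5 called genes with any 1 compared array left out, and 7 rose without the 3 arrays that stood apart. ASNS, PHGDH and the synthetase gene AARS1 reached intensities close to the highest value on the arrays, so their changes may be compressed. Outside the list, AMT, the aminomethyltransferase of the glycine cleavage system, was up by 1.57 (adjusted p = 0.0159). This call was lost without combination A or C or control A or B (adjusted p from 0.0617 to 0.0767).

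Uptake and tRNA charging moved the same way in part. SLC6A9, the glycine transporter GLYT1, had 2135, 1795 and 1643 in combination cells against 588, 562 and 472 in control cells, a log2 change of 1.78 (SE 0.15, adjusted p = 0.000243). Averaged over its 3 probes, SLC6A9 was up by 0.62 (adjusted p = 0.0136). SLC3A2, the heavy chain that carries several amino acid transporters to the surface, rose by 0.75 (8904, 8074 and 9121 in combination cells, 5536, 4818 and 5178 in control cells). These were the 2 called genes of 10 transporters, whose median was 0.43. SLC7A11, the cystine transporter, stood at 0.19 and was not called (adjusted p = 0.781). Of 18 cytosolic aminoacyl-tRNA synthetases 4 rose and 0 fell, with a median of 0.55. AARS1 (alanine) rose by 1.03, SARS1 (serine) by 0.96, MARS1 (methionine) by 0.94 and WARS1 (tryptophan) by 0.85. MARS1 stood at 5405, 6750 and 5768 in combination cells and at 3082, 3090 and 3135 in control cells. Leaving those 3 arrays out gave more calls: 4 transporters and 10 synthetases rose, and 0 transporters and 1 synthetase fell.

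The promoters of 4 of these genes are shown because they hold the letters of the C/EBP-ATF response element, TGATGNAA on either strand, within 250 bases before and 50 bases after the gene's start. They are RefSeq sequences of build GRCh38.p14, written along the gene's strand with the motif in capitals, so that a match on the other strand appears as its reverse complement. ASNS lies at chr7:97872359-97872658 on the minus strand, with the motif at -68 from the start. For AARS1 the window is chr16:70289457-70289756 on the minus strand, with the motif at -187. MARS1 is at chr12:57487818-57488117 on the plus strand, with the motif at -4, and SLC3A2 at chr11:62881449-62881748 on the plus strand, with the motif at 38 after the start. AARS1 and MARS1 were added after their values were seen.
ASNS: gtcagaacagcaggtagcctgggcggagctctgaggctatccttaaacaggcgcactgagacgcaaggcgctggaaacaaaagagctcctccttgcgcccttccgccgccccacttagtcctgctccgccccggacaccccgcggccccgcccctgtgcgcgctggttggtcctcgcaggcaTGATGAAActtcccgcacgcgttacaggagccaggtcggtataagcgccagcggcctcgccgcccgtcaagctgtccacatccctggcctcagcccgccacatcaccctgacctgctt
AARS1: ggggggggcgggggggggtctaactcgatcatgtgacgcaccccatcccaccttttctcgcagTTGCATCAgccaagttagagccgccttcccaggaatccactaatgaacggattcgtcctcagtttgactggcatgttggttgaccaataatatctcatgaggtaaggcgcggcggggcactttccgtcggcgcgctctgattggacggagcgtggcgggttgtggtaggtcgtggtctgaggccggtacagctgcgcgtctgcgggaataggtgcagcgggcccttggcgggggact
MARS1: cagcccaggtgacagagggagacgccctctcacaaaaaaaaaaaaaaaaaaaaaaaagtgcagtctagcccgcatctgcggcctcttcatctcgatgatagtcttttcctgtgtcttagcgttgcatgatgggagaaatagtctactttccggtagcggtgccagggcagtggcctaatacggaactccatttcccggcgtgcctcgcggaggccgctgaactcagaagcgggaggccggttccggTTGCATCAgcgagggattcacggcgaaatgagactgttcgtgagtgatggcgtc
SLC3A2: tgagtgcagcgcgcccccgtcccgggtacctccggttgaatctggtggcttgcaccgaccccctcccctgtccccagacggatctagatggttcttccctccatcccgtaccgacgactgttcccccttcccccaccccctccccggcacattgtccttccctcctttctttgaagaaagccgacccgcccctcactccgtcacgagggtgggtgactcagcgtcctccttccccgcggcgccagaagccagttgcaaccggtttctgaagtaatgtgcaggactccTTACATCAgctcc

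RefSeq gave a promoter for 46 of the 57 measured ATF4-list and synthetase genes. The motif was present in 4 of the 14 that rose (28.6%), in 7 of the 32 that were not called (21.9%) and in 1003 of all 27305 promoters of the table (3.67%). The windows of DDIT4, PCK2, SLC6A9, PSAT1, SESN2, TRIB3, PHGDH, CBS, SARS1 and WARS1 do not hold these letters. A match describes the letters in this window and is not evidence of binding.

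**Figure D2:**
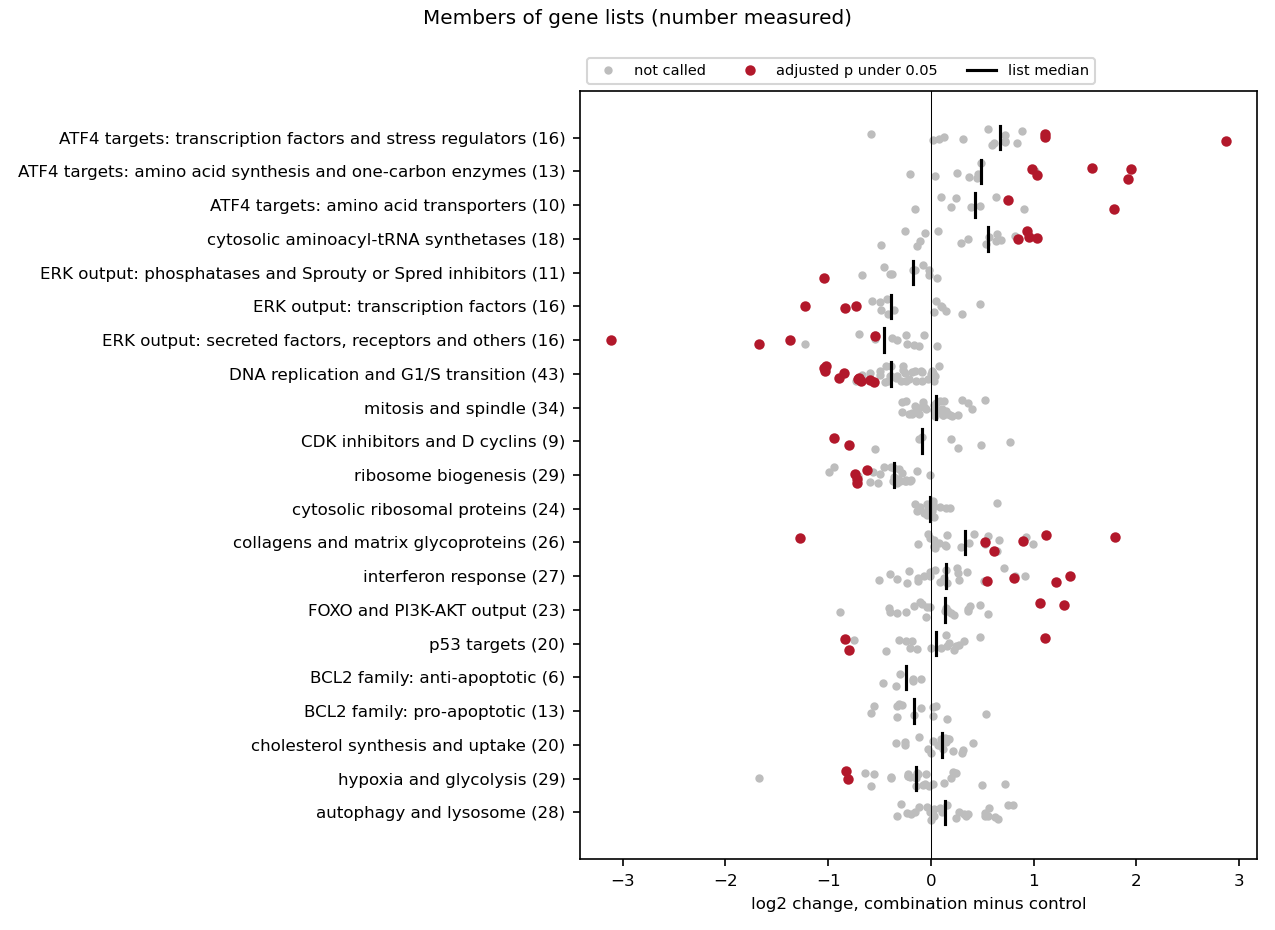
Log2 change of combination minus control for each measured member of 21 gene lists, with the number of members in brackets, called genes in red, other genes in grey and the list median as a black bar. The ATF4 lists and the synthetases have medians from 0.43 to 0.67, DNA replication and ribosome biogenesis have medians of -0.39 and -0.36, and mitosis sits at 0.05.

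The largest fall was in ESM1, which encodes the secreted proteoglycan endocan. ESM1 stood at 2473, 1670 and 1788 in combination cells and at 14818, 15511 and 20902 in control cells, a log2 change of -3.12 (SE 0.18, adjusted p = 8.5e-06). It heads a list of 16 secreted factors, receptors and other genes that ERK is known to raise, in which 4 fell, 0 rose and the median was -0.46. PTGS2, the inducible cyclooxygenase COX-2, had 4544, 3190 and 3463 in combination cells and 7784, 9520 and 11732 in control cells (log2 change -1.37, adjusted p = 0.0178). SPHK1, which makes sphingosine 1-phosphate, had 852, 1323 and 1265 in combination cells and 4158, 3976 and 2781 in control cells (-1.67, adjusted p = 0.0157). The groups of both genes were apart, as in every called gene, and each call ended without some single arrays. For PTGS2 these were combination B or C and control B or C (adjusted p from 0.0705 to 0.0784), and for SPHK1 combination A or C and control A or B (0.0519 to 0.078). With both its probes averaged SPHK1 was at -0.95 (adjusted p = 0.0155). HBEGF, an EGF-family ligand, fell by 0.54 on the log2 scale, with little spread between arrays, at 9218, 9011 and 8766 in combination cells and 13046, 13358 and 12820 in control cells. CXCL8, the chemokine interleukin-8, differed by -0.70 without passing (adjusted p = 0.0999). In the 9 arrays that did not stand apart 7 members fell, and with 1 array left out the count ran from 1, without combination C or without control B, to 3.

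Transcription factors downstream of ERK fell in 3 cases. EGR1, an immediate early zinc finger factor, had 1910, 2707 and 2263 in combination cells and 4626, 6130 and 5276 in control cells, a log2 change of -1.23 (SE 0.17, adjusted p = 0.00395). ETV4 (-0.84), a PEA3 factor, and IER2 (-0.73), another immediate early gene, fell too. Of the 16 measured factors 0 rose, and the list median was -0.39. MYC was at 0.03 and FOSL1 at -0.42, neither called. Among 11 phosphatases and Sprouty or Spred inhibitors, which feed back on the pathway, DUSP5 was the 1 called gene. DUSP5, a nuclear ERK phosphatase, had 12631, 11504 and 14376 in combination cells and 21750, 22103 and 37650 in control cells (-1.04, adjusted p = 0.0315). DUSP6 (-0.40) and SPRY4 (-0.67, adjusted p = 0.0545) were not called, and 10 of the 11 had a lower mean in combination cells (list median -0.17). When the arrays that stood apart were left out, 6 of the factors fell and 1 rose, and 1 feedback gene fell. The factor count was 1 to 2 with a compared array left out, and the call of DUSP5 ended in all of these settings except the one without combination C.

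DNA replication and G1/S genes fell in 10 cases of 43 and rose in 0, with a list median of -0.39. FEN1, the flap endonuclease that finishes Okazaki fragments, had 10519, 9815 and 8969 in combination cells and 19709, 18025 and 22859 in control cells (log2 change -1.04, SE 0.12, adjusted p = 0.0015). CCNE1, the cyclin E that starts S phase, had 2640, 2885 and 2830 in combination cells and 5335, 5848 and 5930 in control cells (-1.03, adjusted p = 0.0015, or -0.60 and 0.0111 with its 2 probes averaged). CDC25A, the phosphatase that activates its kinase partner, fell by 1.02 on the log2 scale, with 1742, 2475 and 1863 in combination cells and 4176, 4458 and 3624 in control cells. These 3 genes were called with any 1 of the 6 arrays left out. The other 7 were the origin and fork factors MCM10 (-0.89), ORC1 (-0.84), CDT1 (-0.71) and CDC45 (-0.68), the histone mRNA binder SLBP (-0.70), the uracil glycosylase UNG (-0.59) and E2F2 (-0.55). PCNA, the sliding clamp, was at -0.49 and not called (adjusted p = 0.0906). The list count was 15 without the 3 arrays that stood apart and 4 to 9 with 1 compared array left out, 4 being the count without combination C or any of the control arrays. The letters TTTNNCGC of an E2F site, searched on both strands, were in 3 of the 10 promoters of the genes that fell (30%) and in 6.9% of all promoters. No share was taken over the list members that were not called, so this does not set the genes that fell apart from the rest of the list.

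Of 34 mitosis and spindle genes 0 were called in either direction by limma, in all 12 arrays or without the 3 that stood apart. The list median was 0.05, and 4 genes had an unadjusted p under 0.05. Among 9 CDK inhibitors and D cyclins, 2 fell. CDKN1A, which encodes the inhibitor p21, had 5194, 4481 and 4218 in combination cells and 8463, 6740 and 9040 in control cells (log2 change -0.80, SE 0.14, adjusted p = 0.0149). CCND3, the gene of cyclin D3, had 13813, 9326 and 10939 in combination cells and 19059, 19090 and 27423 in control cells (-0.94, adjusted p = 0.0164). Both pairs of groups were apart, as in every called gene. The CDKN1A call ended without combination B or C or control A or C (adjusted p from 0.0572 to 0.0668) and the CCND3 call without combination B or C (0.0672 and 0.0693). Other members were CDKN1B, the p27 inhibitor, at 0.49 and CCND1, cyclin D1, at -0.54, neither called. The list had 3 falls without the arrays that stood apart.

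Ribosome assembly factors had lower means throughout. All 29 measured biogenesis genes had a lower mean in combination cells, with a median log2 change of -0.36, and 4 of them fell. These were BYSL (-0.74), NOP2 (-0.72), NIP7 (-0.72) and RRP12 (-0.62), which act in the processing and export of ribosomal subunits. BYSL had 4265, 4697 and 5276 in combination cells and 7873, 7220 and 8665 in control cells. The 9 other arrays gave 12 falls, and with 1 compared array left out the count was 0 to 2, with 0 reached without combination B. Of 24 cytosolic ribosomal protein genes 0 were called by limma, 1 had an unadjusted p under 0.05 and the median was -0.004, and 1 rose without the 3 arrays.

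Genes of the extracellular matrix were the main mixed group. Of 26 collagens and matrix glycoproteins 5 rose and 1 fell, with a median of 0.34. MATN2, the filament-forming matrilin-2, had 19910, 12290 and 14137 in combination cells and 4534, 4911 and 3738 in control cells (log2 change 1.79, SE 0.29, adjusted p = 0.0117). COL1A2, a chain of type I collagen, had 60670, 47757 and 48632 in combination cells and 21147, 21489 and 30385 in control cells (1.12, adjusted p = 0.00971). The proteoglycan gene DCN (0.89), FBLN1 for fibulin-1 (0.61) and COL6A3 for a type VI collagen chain (0.52) rose less. For DCN, decorin, 2 of its 4 probes had the opposite sign, and averaging them left 0.30 (adjusted p = 0.146). The gene that fell was THBS1, the antiangiogenic glycoprotein thrombospondin-1, with 2269, 1667 and 2051 in combination cells and 4163, 4979 and 5321 in control cells (-1.28, SE 0.20, adjusted p = 0.00939). Without control B the calls of COL1A2 (1.04, adjusted p = 0.0567) and THBS1 (-1.25, adjusted p = 0.0546) ended, and the list count dropped to 1. The DCN call ended without combination A or C or control A or B (adjusted p from 0.0668 to 0.0891). With the arrays that stood apart removed, 10 genes of the list rose and 1 fell.

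Several of these genes also mark fibroblasts and stroma. In that list of 13 genes 4 rose (ACTA2, COL1A2, DCN and THY1), 0 fell and the median was 0.25. ACTA2, smooth muscle actin, had 16443, 13813 and 12527 in combination cells and 5269, 4761 and 4649 in control cells (log2 change 1.54, SE 0.17, adjusted p = 0.0015), and THY1 (CD90) rose by 0.85. Summed over the list, intensity was 211910 to 222830 in combination arrays and 149470 to 168160 in control arrays. Of the 13 genes 11 had a higher mean in combination cells. COL3A1, LUM and PDGFRB lay near the background in both groups and the other 10 did not. Without the 3 arrays that stood apart 5 rose and 1 fell, and the list count was 1 to 3 with a compared array left out, with 1 reached without control B. SNAI2, the transcription factor Slug of mesenchymal cells, rose by 1.41, with 4948, 3601 and 4280 in combination cells and 1550, 1720 and 1520 in control cells.

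Further large rises fall in no common group. OLFML2A, a secreted olfactomedin-domain protein, had 7816, 7667 and 7454 in combination cells and 1718, 1598 and 1041 in control cells, a log2 change of 2.43 (SE 0.17, adjusted p = 5.01e-05). MIR503HG, the host transcript of a microRNA cluster, rose by 1.93 (9398, 9023 and 11530 in combination cells, 2488, 2723 and 2592 in control cells). ABCC3, the efflux pump MRP3, had 1327, 1283 and 1546 in combination cells, against 367, 359 and 365 in control cells. Its control arrays were near the background, so its log2 change of 1.92 (SE 0.11, adjusted p = 8.5e-06) may be understated. ABCC3 was the 1 gene called of 7 multidrug transporters, with or without the arrays that stood apart. TUBB2B (1.76), a beta-tubulin, CLIP3 (1.56), a microtubule and membrane linker, and MTMR11 (1.53), a catalytically dead myotubularin, complete the 15.

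The other large falls were equally varied. FOXQ1, a forkhead factor, was almost identical between combination arrays, at 3005, 2980 and 3000, against 6904, 7391 and 7367 in control cells (log2 change -1.27, SE 0.13, adjusted p = 0.00067). LPXN, the focal adhesion adaptor leupaxin, fell by 1.14 on the log2 scale, with 7500, 6468 and 7415 in combination cells and 13435, 14436 and 19809 in control cells. APLN, the peptide apelin, fell by 1.16, with 420, 420 and 448 in combination cells and 1283, 812 and 839 in control cells. TBX2 (-1.18), a T-box repressor, CYP1B1 (-1.41), a cytochrome P450, SLCO4A1 (-1.27), an organic anion carrier, SHISA2 (-1.20), a membrane protein of the secretory pathway, and KRTAP4-7 (-1.57), a keratin-associated protein, were called with any 1 array left out. The mean of the 2 KRTAP4-7 probes changed by -0.88 (adjusted p = 0.00143). CCL3L3, a copy of the chemokine CCL3, had 367, 441 and 722 in combination cells and 1337, 1398 and 1392 in control cells (-1.49, adjusted p = 0.0171). Its call ended without each of these 6 arrays except combination C (adjusted p from 0.0583 to 0.078). Because CCL3, CCL3L1 and CCL3L3 are near-identical, their probes may read one another. In combination cells the means of APLN (429), KRTAP4-7 (358) and CCL3L3 (510) were near the background. EVI2A (-1.19), a membrane protein gene inside an intron of NF1, lost its call without combination A or B or control B or C (0.0721 to 0.0905). It also lost it when its 3 probes were averaged (-0.57, adjusted p = 0.0939), since 1 of them had the opposite sign.

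With all 12 arrays, transcripts of the drug targets and of lipid synthesis gave no calls, while ERK output genes (above) and FOXO or AKT output genes gave some. AKT1 had 19616, 15591 and 13776 in combination cells and 18698, 15968 and 17603 in control cells, overlapping groups with a log2 difference of -0.11 (SE 0.15, adjusted p = 0.866). Of 15 genes for AKT isoforms and their pathway and 11 kinases that sorafenib binds, 0 were called by limma. At an unadjusted p under 0.05 there were 1 and 3, beside 2404 of 18852 genes in all. Without the 3 arrays that stood apart 1 pathway gene rose, and 1 of the kinase genes rose and 1 fell. Of 23 genes that FOXO factors raise or AKT signalling controls, 2 rose and 0 fell (median 0.14). FBXO32, the ubiquitin ligase atrogin-1, had 1666, 1805 and 1720 in combination cells and 782, 710 and 635 in control cells (log2 change 1.29, adjusted p = 0.0015), and TSC22D3, the leucine zipper protein GILZ, rose by 1.07 (adjusted p = 0.0281). This list had 1 to 2 calls with 1 compared array left out and 3 rises without the arrays that stood apart. Neither cholesterol synthesis (20 genes, median 0.11), fatty acid synthesis (14, -0.07) nor phospholipid synthesis (17, -0.01) held a called gene by limma. At an unadjusted p under 0.05 they had 0, 0 and 7, and phospholipid synthesis had 3 falls once the arrays that stood apart were left out.

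Cell death genes gave few calls. MCL1, the labile anti-apoptotic factor, had 11049, 8943 and 8591 in combination cells and 9779, 11710 and 15047 in control cells, which overlap (log2 difference -0.34, SE 0.30, adjusted p = 0.751). Of its 2 probes 1 had the opposite sign, and their mean was at -0.17. By limma 0 of the 6 anti-apoptotic BCL2 genes (median -0.24) and 0 of the 13 pro-apoptotic ones (median -0.16) were called. At an unadjusted p under 0.05 there were 1 and 2, beside 2404 of 18852 genes in all. When the arrays that stood apart were left out 1 and 2 fell, beside 2.54% of all genes. TNFRSF10D, a decoy receptor for TRAIL, fell by 0.73 on the log2 scale and was the 1 called gene of 19 death receptors, caspases and inhibitors, though its list had 0 calls with any 1 compared array left out and 1 fall without the 3 that stood apart. Of 20 p53 targets SESN2 rose and CDKN1A and AEN (-0.83), an exonuclease, fell. That list had 1 to 2 calls with 1 compared array left out, and 2 rises and 3 falls without the arrays that stood apart.

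Among defence and stress lists the interferon response had 4 of 27 genes higher and 0 lower, with a median of 0.15. GBP2, a guanylate-binding protein, had 1275, 933 and 957 in combination cells and 425, 389 and 412 in control cells, which lie near the background (log2 change 1.35, adjusted p = 0.0023). MX1, an antiviral GTPase, rose by 1.22, IRF9 by 0.81 and IRF7 by 0.55, both transcription factors of the pathway, and with 1 compared array left out 1 to 2 of the list were called, and 5 rose without those that stood apart. Of 29 hypoxia and glycolysis genes ADM (-0.83), the peptide adrenomedullin, and SLC2A1 (-0.81), the glucose transporter GLUT1, fell. The count there was 0 to 1 with 1 compared array left out, 0 being reached without combination B or C or any control array, and without the arrays that stood apart 5 fell and 1 rose. ANKRD37, a hypoxia-induced ankyrin gene, differed more but with more spread, at 4513, 7467 and 9738 in combination cells and 22078, 24313 and 19845 in control cells (-1.67, SE 0.47, adjusted p = 0.109). Of 21 ER chaperones 1 was lower, as it was without the arrays that stood apart, but 0 were called with any 1 of the 6 compared arrays left out. By limma 0 genes were called among 18 cytosolic heat shock proteins, 18 genes of oxidative stress defence, 26 NF-kB genes, 12 of MHC class I and 28 of autophagy and lysosome. At an unadjusted p under 0.05 these lists had 6, 1, 4, 1 and 9, beside 2404 of 18852 genes in all. Once the arrays that stood apart were left out, 5.9% of all genes were called. In these lists 1 heat shock gene then fell, 0 genes of oxidative stress defence were called, 2 NF-kB genes fell, 2 MHC class I genes rose and 6 autophagy and lysosome genes rose.

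Setting the combination against each component asks what the second drug added. Against perifosine alone, 414 genes differed (2.2%), 230 higher (1.22%) and 184 lower (0.976%) in combination cells. Of the 42 called genes named by the rule given under the processing, 35 were among them. Most of those 42 were picked for their change against control, and the combination arrays are shared, so this overlap is in part built in. Against sorafenib alone, 0 of 18852 genes passed by limma (0%). The lowest adjusted p was 0.597, 643 genes had an unadjusted p under 0.05, and the count was also 0 in every other setting tried. Over the 42 genes combination minus sorafenib lay between -1.26 and 0.60 on the log2 scale (median 0.09). The median half-width of its 95% interval, taken gene by gene, was 0.36. The correction over all genes asks for larger differences than that, and THBS1, at -1.26, had an adjusted p of 0.597 by limma. Differences above 0.36 could therefore go uncalled as well. The comparisons with control share the same 3 control arrays, and their values are given side by side below. Against control 425 genes differed with sorafenib alone (2.25%, of which 1.33% higher and 0.928% lower) and 56 with perifosine alone (0.297%, of which 0.202% higher and 0.0955% lower).

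**Figure D3:**
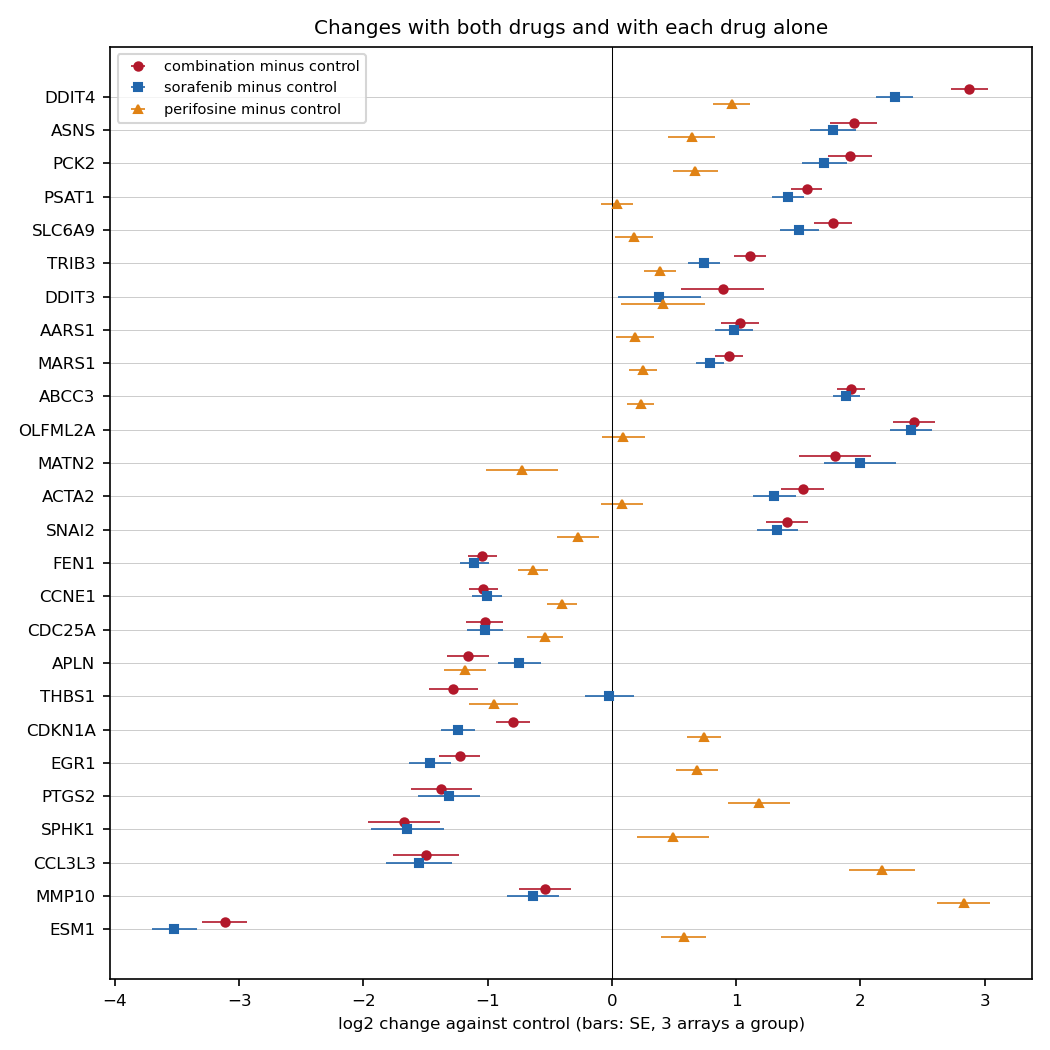
Log2 change against control, with its SE, for 26 genes named in the text, as circles for the combination, squares for sorafenib and triangles for perifosine (3 arrays a group). Circles and squares lie close together for most genes, while THBS1 has its square at -0.02 and its circle at -1.28, and MMP10 has its triangle at 2.83.

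For DDIT4 the log2 change was 2.88 with both drugs, 2.28 with sorafenib and 0.96 with perifosine. Its arrays stood at 16634, 18654 and 19775 in combination cells and at 14386, 10763 and 11384 in sorafenib cells, and do not overlap. The difference of 0.60 had an interval of 0.28 to 0.92 and an unadjusted p of 0.00172, but an adjusted p of 0.999 over all genes. TRIB3 differed from sorafenib alone by 0.37, with an interval of 0.10 to 0.65, and also failed the correction. ASNS changed by 1.95 with both drugs, 1.78 with sorafenib and 0.64 with perifosine, and PSAT1 by 1.57, 1.42 and 0.04 in the same order. For the ATF4 enzymes the list medians were 0.49, 0.66 and 0.04, and for the synthetases 0.55, 0.50 and -0.02. Those of DNA replication were -0.39 with both drugs, -0.32 with sorafenib and -0.44 with perifosine.

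Among those 42 genes, the one farthest from its value with sorafenib alone was THBS1. It changed by -1.28 with both drugs, -0.02 with sorafenib and -0.95 with perifosine. Its intensities were 2269, 1667 and 2051 in combination cells, against 3965, 6668 and 3993 in sorafenib cells, so the groups are apart. The difference was -1.26 (interval -1.69 to -0.82, unadjusted p = 4.36e-05, adjusted p = 0.597). CDKN1A changed by -0.80 with both drugs, -1.24 with sorafenib and 0.74 with perifosine, and APLN by -1.16, -0.74 and -1.18. Some genes had a negative value with both drugs and a positive one with perifosine alone. PTGS2 was at -1.37 with both drugs and 1.18 with perifosine, EGR1 at -1.23 and 0.68, and CCL3L3 at -1.49 and 2.17. With perifosine alone CCL3L3 was called (adjusted p = 0.00744 by limma), while PTGS2 (0.0939), EGR1 (0.183) and CDKN1A (0.0542) were not. The interaction, described below, was called for none of the 42 genes (lowest adjusted p 0.274). For the 16 secreted factors the list medians were -0.46 with both drugs, -0.61 with sorafenib and 0.49 with perifosine.

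The interaction tests whether the change with both drugs departs from the sum of the changes with each drug on the log2 scale. It was called in 3 genes (0.0159%), all of them below the sum. MMP10, the metalloproteinase stromelysin-2, had 1063, 904 and 698 in combination cells and 8626, 8019 and 10699 in perifosine cells, against 1147, 718 and 666 in sorafenib cells and 1398, 1273 and 1155 in control cells. Perifosine arrays alone were high, and the interaction was -2.73 (SE 0.30, adjusted p = 0.0127). Between combination and control MMP10 differed by -0.54 without passing (adjusted p = 0.295). MMP1, the interstitial collagenase, was near the background at 313, 328 and 308 in combination cells and reached 1412, 2141 and 1770 in perifosine cells. It had 284, 297 and 308 in sorafenib cells and 327, 380 and 360 in control cells, with an interaction of -2.21 (SE 0.19, adjusted p = 0.00218). FERMT1, the integrin activator kindlin-1, had 3202, 3245 and 3256 in combination cells, 7310, 7033 and 8236 in perifosine cells, 3197, 3561 and 3155 in sorafenib cells and 3026, 3700 and 3319 in control cells. Its interaction was -1.20 (SE 0.15, adjusted p = 0.0281). ESAM (-1.17, adjusted p = 0.0739), an endothelial adhesion molecule, RHOB (-1.67, 0.0787), a small GTPase, and ARSB (-1.40, 0.0855), a lysosomal sulfatase, came next, named after their values were seen, and did not pass.

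**Figure D4:**
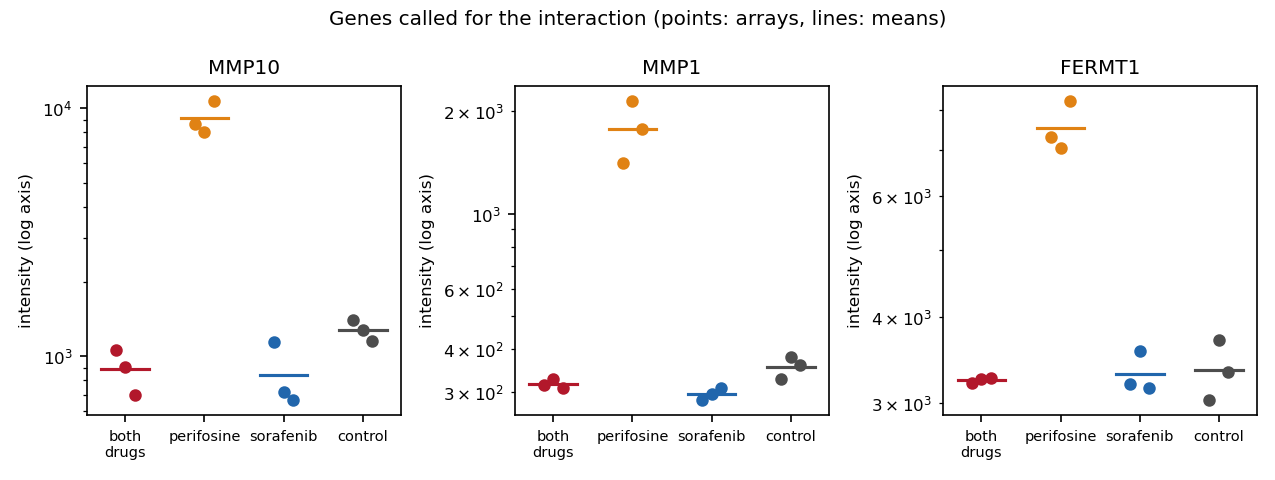
Intensity of MMP10, MMP1 and FERMT1 on log axes, with 1 point per array and a line at the group mean, for both drugs, perifosine alone, sorafenib alone and control. In each panel the 3 perifosine arrays lie above the other 9, as in MMP10 at 8019 to 10699.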

How the data were processed

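Expression was measured in 12 samples of HD-MyZ cells on Illumina beadchips, and 6 of them, 3 combination and 3 control, carry the main comparison. RNA came from a Trizol extraction with column clean-up, per the labels. The submitters' processing notes name BeadStudio, with neither version nor settings given in the sources used here. Values in the deposited table are intensity on a linear scale. From the values, the sorted columns of the arrays differ by at most 2.34%, which is how quantile-normalized columns look, and the lowest is 170. A table without normalization has 12 columns that match no sample's labels and was not used, so the background correction that it would allow was not made.

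Log2 of the deposited intensities was used with no further step. Of 48803 probes 28098 had 1 gene symbol in the platform annotation, 13 had several and 20692 were not listed. The probe with the highest mean log2 was kept for each of 18852 genes (6132 had several). The means of the 4 groups were estimated together from the 12 arrays with limma 3.58.1 in R 4.3.3 (8 residual and 3.52 prior degrees of freedom). Tests were moderated and two-sided, with Benjamini-Hochberg adjustment over all genes of a contrast and a threshold of 0.05. A gene is said to be called, or to have risen or fallen, where it passed. The fit was tested on simulated data with known changes.

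Named are the 15 largest rises and 15 largest falls among called genes without overlap and placeholder symbols, up to 3 called genes of each list with at least 20% called, and a fixed set (TRIB3, DDIT4, DDIT3, ESM1, MMP10, EGR1, CDKN1A, MCL1 and AKT1, some further genes of this set not being reported here). Other list members, and genes of the interaction, were named after their values were seen. The comparison, the 45 gene lists (859 entries, 799 measured) and this rule were chosen with earlier results of these data known, and no list was tested as a set. An array was taken to stand apart if its group mates correlated with each other more strongly, by over 0.005, than it did with them on average. Motifs were searched in RefSeq promoters, which matched 78.9% of the genes tested, so no share over all called genes is given. Alternatives covered the background, a repeat of normalization on the deposited values, dim genes, probe choice, spread estimate and each array left out.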

Additional observations from a re-analysis of the deposited data

Results flagged for a closer look

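A test of the difference between 2 contrasts, the perifosine effect with sorafenib and without it, singled out 3 genes, and all 3 had a smaller effect with sorafenib. The perifosine effect on MMP10 was lower by a log2 value of -2.73 with sorafenib, with means of 888 ± 183 in combination cells and 844 ± 264 in sorafenib cells, against 9115 ± 1405 in perifosine cells and 1275 ± 122 in control cells (SD, n = 3 each, adjusted p = 0.0127 by limma). For MMP1 the difference was -2.21, with 316 ± 10.3 in combination cells and 296 ± 12.03 in sorafenib cells, against 1774 ± 365 in perifosine cells and 356 ± 26.6 in control cells. For FERMT1 it was -1.20, with 3234 ± 28.5 in combination cells and 3305 ± 223 in sorafenib cells, against 7526 ± 630 in perifosine cells and 3348 ± 338 in control cells. MMP1 was called in all 24 alternatives that kept it. MMP10 was called in 21 of 25, with the call ended without combination B, control C, perifosine A or perifosine C (highest adjusted p 0.0707). FERMT1 was called in 7 of 25, and its call ended with any 1 of 10 arrays left out, sorafenib B and control B being the exceptions. Without the 3 arrays that stood apart the adjusted p was 0.00345 for MMP10 and MMP1 and 0.0719 for FERMT1.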

How the results depend on the processing

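With 3 arrays a group, the number of genes called between combination and control depended on the arrays and the spread estimate. Repeating quantile normalization or centring medians could change little, because the deposited values already look quantile normalized. Dependence on normalization was therefore not tested. Against 343 genes with all arrays it was 89 to 1046 with 1 array left out, 1112 without the 3 arrays that stood apart, 1181 with array weights, 214 with a spread that follows intensity, 202 with normexp correction and 202 with 150 subtracted. It was 16 when a log2 change above 0.5 was itself tested. Combination against perifosine had 414 genes, 215 to 1050 with 1 array left out, 1304 without those 3 arrays, 1306 with array weights, 843 when only the 2 groups were fitted and 56 in the test against 0.5. The interaction had 3 genes, 1 to 4 with 1 array left out, 1 among genes with a mean log2 of at least 9 and 15 with array weights. Combination against sorafenib had 0 genes by limma in every setting, and 643 at an unadjusted p under 0.05. Other settings (quantile normalization, median centring, 100 added, a floor of 8.5, the mean of all probes and, chosen after seeing the data, each probe tested on its own) kept each count within 1.5 times. The cause of these shifts was not tested.

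The labels do not say what the letters A, B and C stand for. Deviations of same-letter arrays of combination and control correlated at -0.64, 0.53 and -0.33 over 9587 genes. Combination A and control C, which both stood apart, correlated at 0.74, so these values cannot tell whether same-letter arrays belong together. With the replicate block 274 genes were called between combination and control, 349 against perifosine, 0 against sorafenib and 2 in the interaction. Of the 46 genes named by rule 42 were called. Of these, 14 were called in every alternative that kept them (25 for KRTAP4-7, 26 for the others). With any 1 of the 6 compared arrays left out 32 were called. None of the 46 changed direction with a call. DDIT3 gained a call with array weights (0.99, adjusted p = 0.00889), and CCND3 lost its call when only the 6 arrays were fitted (adjusted p = 0.0541). Averaging all probes of a gene shrank the changes of SLC6A9, PSAT1, SPHK1, KRTAP4-7, CCNE1, EVI2A and DCN by more than 1.5 times, to 0.62, 0.86, -0.95, -0.88, -0.60, -0.57 and 0.30, and the last 2 lost their calls. The table without normalization could not be used as an alternative. Dim genes limit the rest: 49.1% of genes had a mean log2 under 9, where changes may be compressed.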

Other observations

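The genes below were named after their values were seen, and their values are a description. They stand for no group, and the list of 28 autophagy and lysosome genes had 0 calls by limma. In that list 9 had an unadjusted p under 0.05, and 6 rose and 0 fell without the 3 arrays that stood apart. DNASE2, the acid DNase, had 10741, 11752 and 13065 in combination cells and 5968, 5810 and 4118 in control cells, a log2 change of 1.18 (adjusted p = 0.0124 by limma). PLD3, a lysosomal exonuclease, rose by 0.95, FUCA1 (fucosidase) by 0.94, TPP1 (tripeptidyl peptidase) by 0.67, SCARB2 (the receptor that sorts glucocerebrosidase) by 0.64 and GLB1 (beta-galactosidase) by 0.54. With sorafenib alone the changes were 0.96 for DNASE2, 0.60 for PLD3, 0.81 for FUCA1 and 0.85 for TPP1.

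Regulators and metabolic genes outside the lists changed as well. HEY1, a Notch-pathway repressor, rose by 1.35 on the log2 scale, with 3343, 2882 and 3195 in combination cells and 1358, 1024 and 1342 in control cells. KLF4, a zinc finger factor, rose by 1.10, and ALDH2, the mitochondrial aldehyde dehydrogenase, by 1.16. SMOX, spermine oxidase, rose by 0.83 with both drugs, while its values were 0.18 with sorafenib and 0.33 with perifosine. PRDM1, the plasma cell factor BLIMP1, had 1096, 1062 and 1037 in combination cells and 2097, 2132 and 2112 in control cells (-0.99, adjusted p = 0.00176). STC1, the secreted glycoprotein stanniocalcin-1, fell by 1.06 and HAS2, a hyaluronan synthase, by 1.05. PNP, a purine phosphorylase, fell too, to 5332, 6505 and 5966 in combination cells, against 10972, 12064 and 12508 in control cells. The value with perifosine alone was positive for all 4 of these falls (0.42 for PRDM1, 0.35 for STC1, 0.47 for HAS2 and 0.39 for PNP). The interaction was called for neither these 4 genes nor SMOX.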
